A study of Caenorhabditis elegans with 27 samples.

Results

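Black rice extract (BRE) was compared with the bacterial diet alone in worms at day 15, late in adult life. The members were chosen by label: the 3 libraries of worms fed OP50 with BRE for 15 days after the L4 larval stage and the 3 of worms fed OP50 alone for as long, 6 of the 27 libraries of the series. Of 46934 genes in the deposited count table, 19290 passed a filter on low counts over the whole series, 17659 of them protein-coding, and all of these were tested. Every worm was Caenorhabditis elegans of the wild-type strain N2, kept at 20 °C on Escherichia coli OP50, a standard laboratory food. The remaining libraries, in groups of 3, hold worms with BRE at days 6, 11 and 17 and worms on OP50 alone at days 1, 6, 11 and 17. About 1000 worms were pooled for each library, and the labels call the 3 libraries of a group biological replicates. BRE concentrations of 0, 0.42, 1.04 and 1.67 mg per mL are listed, but not which of them the sequenced worms received, and the labels do not say how offspring were kept apart from the ageing adults. RNA came from whole worms, so fewer cells of a type and less RNA per cell cannot be told apart in any value below.

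Black rice is rich in anthocyanins, plant pigments with antioxidant activity. In C. elegans the gut faces the bacteria that the worm eats, and the p38 kinase PMK-1 keeps up the expression there of secreted lectins, lysozymes and small proteins with CUB-like domains that act against microbes. The adult gut also makes the vitellogenins, yolk proteins that are taken up by oocytes, while the epidermis secretes the collagens of the cuticle, mostly around each larval moult. Expression of many of these genes is known to decline as adults age.

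Library totals at day 15 were 129.34, 123.32 and 123.37 M counts with BRE and 101.61, 146.03 and 116.54 M counts on OP50 alone, within the 101.61 to 164.34 M of the series. On each of the first 3 principal components 1 library stood apart. BRE replicate 1 scored 77.8 on the second principal component of the 6 libraries, against -10 and -13.3 for the other BRE libraries and -30.9, -23.9 and 0.2 for the OP50 libraries, and this component held 28.6% of the variance. OP50 replicate 3 scored 72.4 on the first component (29.7% of the variance), on which the other 5 libraries lay between -35.4 and 16.1. OP50 replicate 1 scored 58 on the third component (18.9% of the variance), on which the other 5 libraries lay between -28.4 and 13.9. None of these components separated the BRE libraries from the OP50 libraries. The most correlated pair crossed the groups, BRE replicate 2 with OP50 replicate 2 (0.9907 on log2 CPM). Within a group the highest was 0.988, for BRE replicates 2 and 3. CPM stands for counts scaled to a common library total after TMM normalization, and values are in the order of replicates 1, 2 and 3 in each group. A positive log2 difference means a higher level with BRE.

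With 3 libraries a side, no gene was called by edgeR's quasi-likelihood test at a Benjamini-Hochberg adjusted p under 0.05 (0% of 19290). The smallest adjusted p was 0.0824. At an unadjusted p under 0.05 there were 546 genes (2.83%), 458 of them higher with BRE (2.37%) and 88 lower (0.456%). DESeq2 called 59 genes, all of them higher with BRE (0.306%), and gave no adjusted p for 3011. In 736 genes every BRE library lay above every OP50 library (3.82%), and in 360 every BRE library lay below (1.87%). The median log2 difference over all genes was 0.01 and 52.3% of genes were positive, with a median standard error (SE) of 0.297. For 63.2% of genes the 95% interval of the difference lay inside a 2-fold change. Without BRE replicate 1, edgeR still called 0 genes, and the genes under an unadjusted p of 0.05 became 187 higher and 114 lower. Both remaining BRE libraries then lay above all OP50 libraries in 1545 genes (8.01%). This is a looser condition, which the 736 genes above meet by definition. Because no gene passed the adjusted threshold, the values that follow describe these 6 libraries.

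Of the gene lists examined, the one with the highest median difference held intestinal defence genes that depend on PMK-1. Of 10 such genes tested, 9 were higher in every BRE library than in any OP50 library, an order found in 3.82% of all genes. At an unadjusted p under 0.05, 9 were higher with BRE (7 without BRE replicate 1), beside 2.37% of all genes. The median log2 difference of the list was 2.68, beside 0.01 over all genes, and DESeq2 called 8 members. Without BRE replicate 1 the median was 2.13, and it lay between 2.13 and 3.17 when each library was left out in turn. At the other ages the same list had medians of -0.19 at day 6, 1.13 at day 11 and -0.32 at day 17.

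sysm-1 encodes a small secreted protein whose reporter is widely used to read PMK-1 activity. It was at 3.96, 2.32 and 4.82 CPM in the BRE libraries, against 0.136, 0.506 and 0.181 CPM in the OP50 libraries. The lowest BRE library was above the highest OP50 library, and the log2 difference was 3.70 ± 0.73 (SE, n = 3 libraries each; edgeR adjusted p = 0.150, higher in 3 of 3). C17H12.8, which encodes a protein with a CUB-like domain, was at 16.9, 3.93 and 14.1 CPM with BRE, against 1.10, 2.55 and 2.07 CPM on OP50 alone. Again the groups did not overlap, with replicate 2 the lowest BRE library and the highest OP50 library, and the log2 difference was 2.60 ± 0.55 (edgeR adjusted p = 0.150). Both genes kept most of the difference without BRE replicate 1, at log2 values of 3.65 and 2.23.

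Further members with CUB-like domains had the same order of libraries at lower levels. dod-24 was at 2.74, 0.452 and 2.10 CPM in BRE worms, against 0.184, 0.109 and 0.130 CPM in OP50 worms (log2 difference 3.66 ± 0.85, edgeR adjusted p = 0.193). dod-22 was at 0.604, 0.211 and 0.760 CPM with BRE, against 0, 0.0256 and 0.0725 CPM with OP50 alone (3.89 ± 0.82, adjusted p = 0.150). irg-4, a gene induced by pathogenic bacteria, was at 1.52, 0.299 and 0.671 CPM with BRE, against 0.0582, 0.141 and 0.159 CPM on OP50 alone. In all of these BRE replicate 2 was the lowest of the BRE libraries and still above every OP50 library. K08D8.5 (log2 difference 2.47), F01D5.5 (3.69) and the C-type lectin gene clec-67 (2.60) also had groups that did not overlap, and the lectin gene clec-85 had a smaller difference, 0.77 ± 0.24. Without BRE replicate 1 the difference was 2.02 for K08D8.5, 2.41 for F01D5.5 and 1.15 for clec-67, which then had an unadjusted p of 0.0832.

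irg-5, another CUB-like gene induced by infection, was the exception. Its levels were 2.19, 2.69 and 4.26 CPM in the BRE libraries, against 4.87, 9.71 and 6.44 CPM in the OP50 libraries. Every BRE library was below every OP50 library, with a log2 difference of -1.20 ± 0.47 (edgeR adjusted p = 1.00). The summed level of the 10 genes was 37.4, 13.5 and 31.1 CPM with BRE, against 8.44, 15.9 and 11.2 CPM with OP50 alone, so the sums overlapped although none of the 10 members did.

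**Figure D1:**
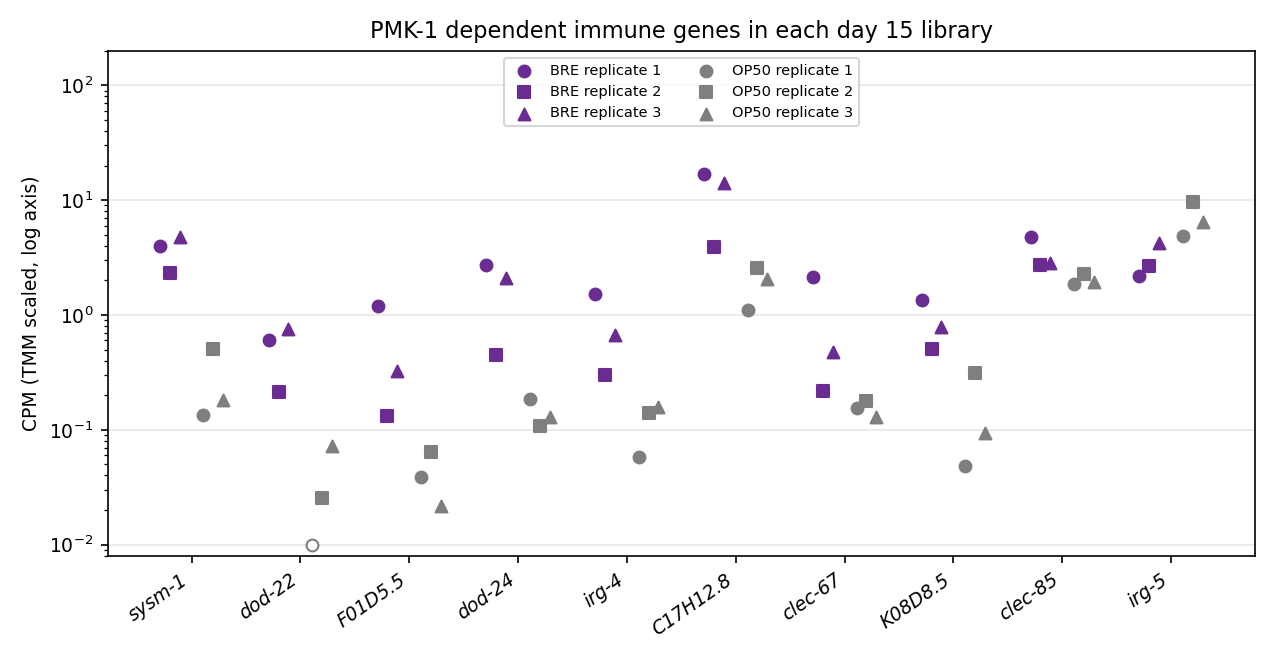
Level of each PMK-1 dependent immune gene in the 6 day 15 libraries, in CPM on a log axis. Purple points are BRE libraries and grey points OP50 libraries, with a marker shape for each replicate number, and the open circle at the bottom is dod-22 in OP50 replicate 1, where its count was 0. In 9 genes all purple points lie above the grey ones, and in irg-5 all lie below.

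The genes of smallest p outside this list, named after their values were seen, had the same order. F56D6.9, whose annotated span overlaps oac-21 on the same strand, had the smallest p of all genes. It was at 0.927, 0.612 and 0.502 CPM with BRE, against 0.0969, 0.0768 and 0.0797 CPM on OP50 alone (log2 difference 3.01 ± 0.50, edgeR adjusted p = 0.0824). The 3 libraries of each group lay close together and the groups were far apart, and the difference was 2.72 without BRE replicate 1. C14C6.5 was at 5.69, 1.74 and 2.30 CPM with BRE, against 0.465, 0.583 and 0.203 CPM on OP50 alone (2.96 ± 0.59, adjusted p = 0.150). C42D4.3 was at 7.33, 1.28 and 17.6 CPM with BRE, against 0.766, 0.352 and 0.681 CPM on OP50 alone (3.87 ± 0.78, adjusted p = 0.150). It was the most variable of these genes among BRE libraries, the lowest of which was still above every OP50 library.

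Larger families of defence genes held single members of this kind, with list medians nearer to that of all genes. Among 176 C-type lectin genes, 109 were positive, and the median log2 difference was 0.10, or 0.00 without BRE replicate 1. At an unadjusted p under 0.05, 15 were higher (8.52%) and 2 lower (1.14%), beside 2.37% and 0.456% of all genes. clec-1 was at 18.9, 16.6 and 11.2 CPM in BRE worms, against 4.41, 7.02 and 6.00 CPM in OP50 worms, with no overlap (1.42 ± 0.29, edgeR adjusted p = 0.150). clec-53 was at 0.537, 0.153 and 0.0885 CPM with BRE, against 0, 0.0768 and 0.0507 CPM on OP50 alone. Its highest library was BRE replicate 1, and the difference of 2.48 was 1.38 without that library.

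Lysozymes cleave bacterial cell walls. Of 15 lysozyme genes, 11 were positive, with a median of 0.29 and of 0.25 without BRE replicate 1. At an unadjusted p under 0.05, 3 were higher (20%, beside 2.37% of all genes), and 1 without BRE replicate 1. ilys-5, an invertebrate-type lysozyme gene, was at 37.2, 19.9 and 19.9 CPM with BRE, against 6.01, 10.3 and 12.2 CPM with OP50 alone (1.43 ± 0.36, edgeR adjusted p = 0.296). lys-2 was at 9.52, 4.80 and 5.92 CPM with BRE, against 3.43, 3.43 and 2.40 CPM on OP50 alone (1.13 ± 0.37, adjusted p = 0.754). Both had no overlap. lys-7, the most abundant lysozyme gene named here, was at 198, 375 and 313 CPM with BRE, against 281, 236 and 187 CPM with OP50 alone, and its groups overlapped.

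Saposin-like proteins insert into membranes and can kill bacteria. spp-17 was at 5.40, 2.32 and 3.08 CPM in BRE libraries, against 0.455, 0.749 and 1.19 CPM in OP50 libraries (2.16 ± 0.46, edgeR adjusted p = 0.150). spp-14 was at 88.4, 134 and 115 CPM with BRE, against 57.0, 57.9 and 80.4 CPM on OP50 alone (0.79 ± 0.26, adjusted p = 0.761), and here BRE replicate 1 was the lowest of its group. Neither gene's groups overlapped. Over 72 antimicrobial peptide genes the median was 0.12, or 0.07 without BRE replicate 1. At an unadjusted p under 0.05, 3 were higher (4.17%, beside 2.37% of all genes) and 0 lower. The pals genes, which answer to intracellular pathogens, had 7 of 36 positive and a median of -0.16, and 0 of them had an unadjusted p under 0.05.

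A different set of genes came from the differences at the other ages. In the mean of the BRE minus OP50 differences at days 6, 11 and 17, edgeR called 5 genes (0.0259%), all higher with BRE: nlp-26, srlf-12, idpp-1, W03G1.5 and srlf-14. Day 15 levels do not enter this mean, but the day 15 libraries took part in the filter, the scaling and the shared estimate of the spread. With libraries of the same number and day as a replicate block, 9 genes were called, these 5 with ora-1, srlf-3, srlf-13 and pqn-75. At day 15 each of the 5 again had all 3 BRE libraries above the highest OP50 library, an order found in 3.82% of all genes.

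nlp-26, which lies at V:19613461-19614534 in the WBcel235 annotation, encodes a neuropeptide-like protein and overlaps Y43F8C.3 on the opposite strand. It was at 3.80, 5.13 and 4.09 CPM in BRE worms, against 0.969, 1.94 and 1.40 CPM in OP50 worms. The BRE libraries were all close to 4 or 5 CPM and the OP50 libraries all under 2 CPM. The log2 difference at day 15 was 1.59 ± 0.32 (edgeR adjusted p = 0.150), beside 2.27 ± 0.33 at day 6, 2.69 ± 0.34 at day 11 and 0.84 ± 0.32 at day 17. BRE replicate 1 was the lowest of its group, and without it the difference was 1.68.

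srlf-12 and srlf-14 belong to the same gene family and lie close together on chromosome IV. srlf-12 was at 1.87, 2.45 and 1.69 CPM with BRE, against 0.989, 0.679 and 0.688 CPM with OP50 alone (1.35 ± 0.35, edgeR adjusted p = 0.314). srlf-14 was at 0.883, 0.838 and 0.620 CPM with BRE, against 0.165, 0.0384 and 0.0145 CPM with OP50 alone (3.49 ± 0.80, adjusted p = 0.193). All BRE libraries were above all OP50 libraries in both genes. Of the 21 srlf genes tested, 15 were positive with a median of 0.22 (13 and 0.05 without BRE replicate 1). At an unadjusted p under 0.05, 3 were higher (14.3%, beside 2.37% of all genes). The third was srlf-3, also on chromosome IV, at 12.79, 11.2 and 7.44 CPM with BRE, against 5.33, 6.30 and 4.83 CPM with OP50 alone (0.93 ± 0.33, adjusted p = 0.903).

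idpp-1 was at 4.20, 4.56 and 0.900 CPM with BRE, against 0.0872, 0.365 and 0.167 CPM with OP50 alone. Replicate 3 was well below the other BRE libraries but above each OP50 library. The log2 difference was 3.93 ± 0.82 at day 15 (edgeR adjusted p = 0.150), beside 4.19, 4.05 and 4.37 at days 6, 11 and 17, and the gene overlaps pat-12 on the opposite strand. W03G1.5 was at 9.27, 6.18 and 3.90 CPM with BRE, against 3.23, 2.89 and 1.92 CPM on OP50 alone (1.27 ± 0.37, adjusted p = 0.548). For each of these 5 genes the day 15 difference was set against the mean of the other days, and no adjusted p was under 1.00. ora-1, named after its values were seen, was at 25.6, 55.01 and 21.6 CPM with BRE, against 2.65, 12.1 and 5.58 CPM on OP50 alone (2.33 ± 0.58, adjusted p = 0.258), with no overlap.

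**Figure D2:**
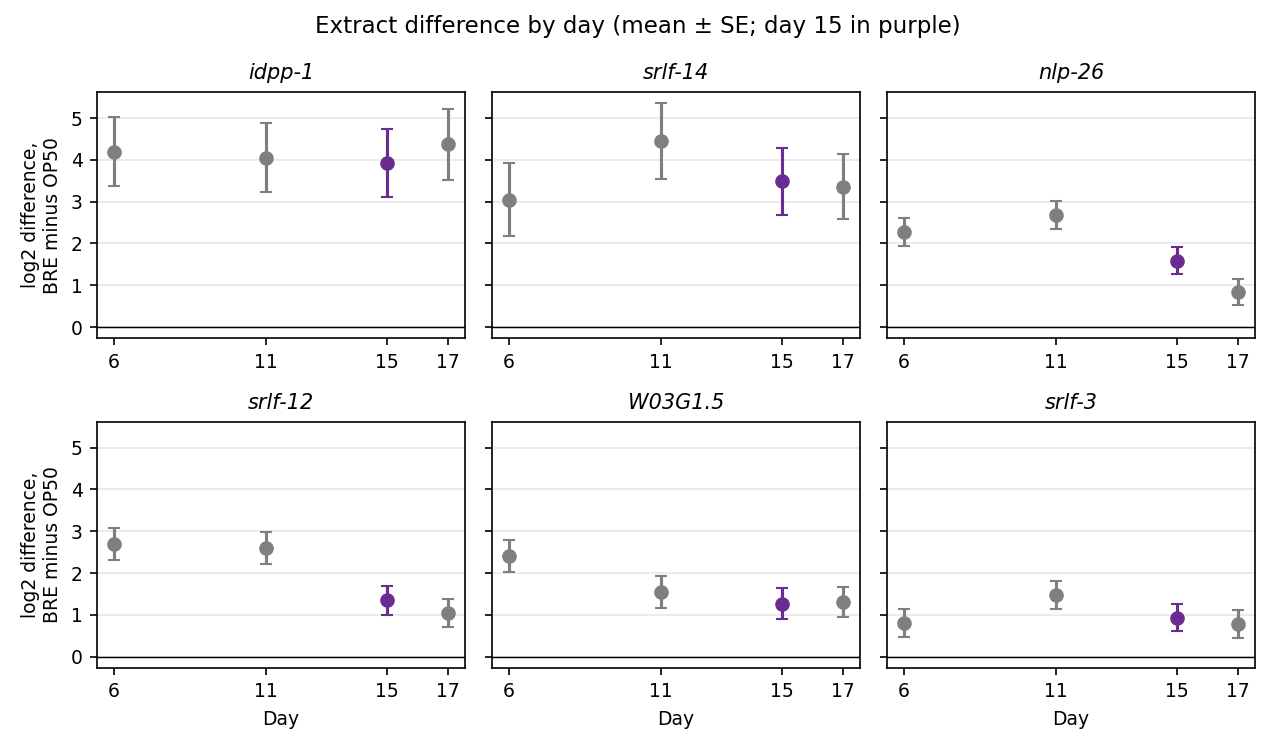
Log2 difference of BRE minus OP50 at days 6, 11, 15 and 17 for the 5 genes called in the mean of days 6, 11 and 17, and for srlf-3. Points are edgeR estimates from 3 libraries a group, bars are ± 1 SE, and day 15 is purple. Every estimate is above 0, and day 15 lies between 0.93 for srlf-3 and 3.93 for idpp-1.

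All 6 vitellogenin genes had positive differences, with a median of 1.23, but this median was 0.39 without BRE replicate 1. vit-3 was at 444, 93.8 and 106 CPM in BRE libraries, against 14.9, 21.8 and 57.9 CPM in OP50 libraries (2.77 ± 0.56, edgeR adjusted p = 0.150). vit-4 was at 355, 105 and 102 CPM with BRE, against 22.9, 27.0 and 73.6 CPM on OP50 alone (2.19 ± 0.49, adjusted p = 0.192). In both genes BRE replicate 1 was over 3 times the next library, the other BRE libraries were still above every OP50 library, and the differences without that library were 1.66 and 1.33. These genes are close copies of each other, so their reads may have been shared between them, and vit-3 overlaps T27A10.8 on the opposite strand.

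The abundant yolk genes differed less. vit-5 was at 6335, 4789 and 4574 CPM with BRE, against 2710, 3769 and 4454 CPM with OP50 alone (0.52 ± 0.26, edgeR adjusted p = 1.00), with no overlap. vit-2, at 8561, 3963 and 4125 CPM with BRE, against 3313, 3141 and 4844 CPM on OP50 alone, and vit-6, at 9402, 4105 and 4684 CPM with BRE, against 4287, 3595 and 4879 CPM on OP50 alone, overlapped between groups. So did vit-1 (1.89 ± 0.61, and 0.41 without BRE replicate 1). The summed yolk level was 25400, 13100 and 13600 CPM in BRE libraries, against 10400, 10600 and 14400 CPM in OP50 libraries, and only BRE replicate 1 was above all OP50 libraries.

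Cuticle collagens made up the greatest log2 differences of the whole comparison, and these rested on 1 library. Among genes of at least 1 CPM with no overlap and an unadjusted p under 0.01, 92 were higher with BRE and 1 was lower, and 21 of the 92 were collagens. The level had to be reached in 1 group only, and 59 of the 92 averaged under 1 CPM on OP50 alone, so this count describes the genes picked and is no measure of direction. Without BRE replicate 1 the same rule gave 38 higher and 4 lower. The 10 of greatest difference were all collagen genes. col-73 was at 26.3, 0.0583 and 0.0664 CPM with BRE, against 0.0194, 0.0256 and 0.0217 CPM with OP50 alone. Its log2 difference of 8.55 ± 2.48 (edgeR adjusted p = 0.548) was 1.43 without BRE replicate 1. col-17 was at 35.8, 0.197 and 0.509 CPM with BRE, against 0.0678, 0.0448 and 0.0362 CPM on OP50 alone, and its difference of 7.95 was 2.84 without that library. col-144 was at 81.9, 0.415 and 1.63 CPM with BRE, against 0.204, 0.166 and 0.188 CPM on OP50 alone, with differences of 7.23 and 2.46.

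dpy-13 and rol-6, collagens whose mutants are short or twisted, followed the same pattern, with BRE replicate 1 at 25.5 and 11.7 CPM and the other 2 BRE and all 3 OP50 libraries at or under 0.229 CPM. Of 159 collagen genes tested, 133 were positive with a median of 1.13. At an unadjusted p under 0.05, 72 were higher (45.3%) and 3 lower (1.89%), beside 2.37% and 0.456% of all genes. Without BRE replicate 1 the median was 0.05 and 6 were higher, beside 187 of all 19290 genes. Collagen transcripts summed to 1390, 466 and 335 CPM in the BRE libraries, against 358, 424 and 448 CPM in the OP50 libraries, and BRE replicates 2 and 3 lay on either side of the OP50 range. The collagen gene of smallest p was col-166, at 11.2, 1.09 and 1.29 CPM with BRE, against 0.552, 0.551 and 0.138 CPM on OP50 alone, with a difference of 3.45, and of 1.53 without BRE replicate 1.

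The hedgehog-related genes, secreted proteins expressed largely in epidermis, also had their highest sum in BRE replicate 1, but kept more of the difference without it. Their sum was 165, 66.6 and 73.6 CPM with BRE, against 52.8, 60.1 and 73.4 CPM with OP50 alone. Of 53 tested, 45 were positive with a median of 0.37 (0.22 without BRE replicate 1). At an unadjusted p under 0.05, 17 were higher (32.1%) and 1 lower (1.89%), beside 2.37% and 0.456% of all genes. Without BRE replicate 1, 7 were higher, beside 187 of all 19290 genes. grd-14 was at 6.70, 0.372 and 0.421 CPM with BRE, against 0.0775, 0.0384 and 0.0507 CPM on OP50 alone, and grd-5 was at 12.7, 3.36 and 1.81 CPM with BRE, against 0.717, 1.08 and 1.59 CPM on OP50 alone. Both had no overlap, with differences of 5.51 and 2.39 that were 2.85 and 1.19 without BRE replicate 1 (edgeR adjusted p = 0.150 for both in all libraries). grl-17 was the 1 lower gene of the rule above, at 0.736, 0.896 and 0.627 CPM with BRE, against 1.16, 1.20 and 1.23 CPM on OP50 alone (-0.67 ± 0.23, adjusted p = 0.892). Its span is shared with 4 genes on the opposite strand.

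Other tissue markers also differed between these libraries. Body wall muscle markers summed to 2400, 1710 and 1170 CPM in BRE libraries, against 1360, 1460 and 1340 CPM in OP50 libraries, with 18 of 19 positive and a median of 0.41, or 0.26 without BRE replicate 1. The troponin gene tnt-2 was at 43.2, 22.4 and 6.63 CPM with BRE, against 2.76, 11.4 and 7.60 CPM on OP50 alone. Of 14 epidermis markers 12 were positive (median 0.12, and 0.03 without BRE replicate 1), and of 17 intestine markers 13 were positive (0.12, and -0.06 without it). Pharynx markers had 9 of 14 positive (0.38, and -0.005 without it), and neuron markers 18 of 23 (0.16, and 0.10 without it). Germline and oocyte markers (median -0.01) and embryo markers (0.01) did not separate the groups, and embryo markers summed to 426, 404 and 415 CPM with BRE and 399, 436 and 391 CPM with OP50 alone. The part of cell composition in the collagen, yolk and immune values was not tested.

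Sperm transcripts set OP50 replicate 3 apart. Major sperm protein genes summed to 6.79, 6.94 and 0.841 CPM in the BRE libraries, against 9.66, 0.595 and 85.2 CPM in the OP50 libraries. All 28 tested had negative differences with a median of -2.71, and this median was 0.02 without OP50 replicate 3. msp-31 was at 0.618, 0.437 and 0.354 CPM with BRE, against 0.688, 0.147 and 5.71 CPM on OP50 alone, and the groups overlapped. These genes are near-identical copies, so single values are uncertain. Without OP50 replicate 3 the immune list had a median of 2.80 and the collagens one of 1.45.

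**Figure D3:**
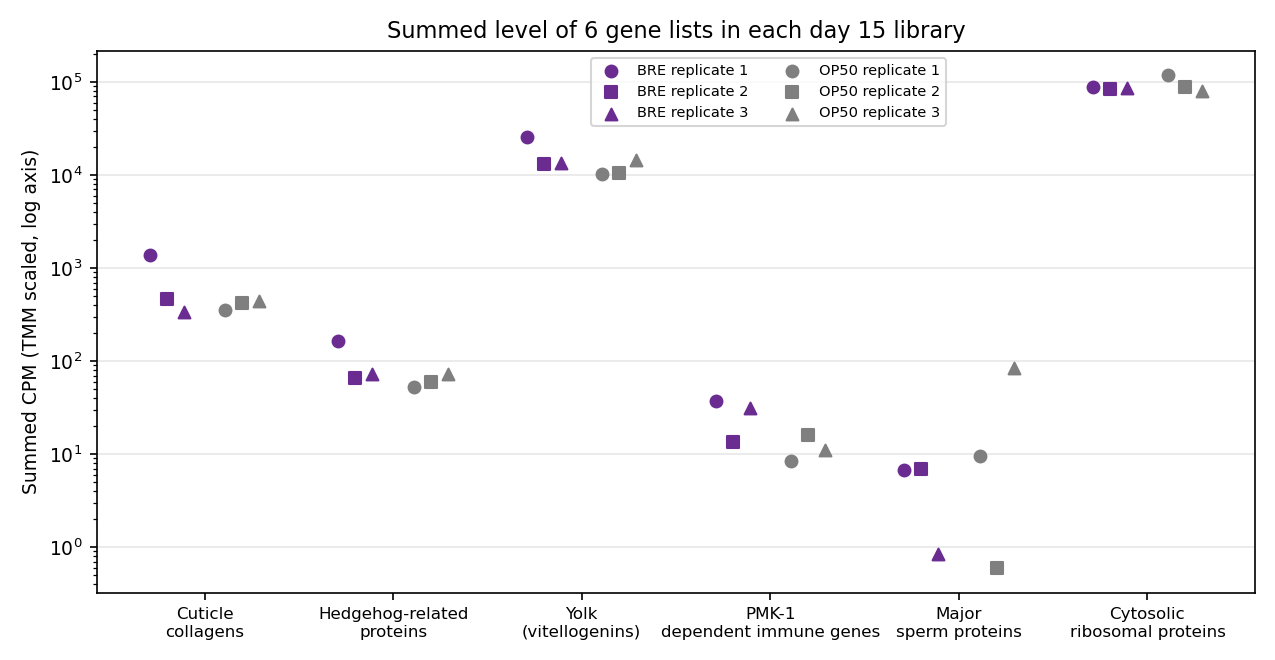
Summed level of 6 gene lists in each day 15 library, in CPM on a log axis, with BRE libraries in purple left of OP50 libraries in grey and a marker shape for each replicate number. BRE replicate 1 is highest for collagens, hedgehog-related proteins and yolk, and OP50 replicate 3 is highest for major sperm proteins.

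Digestive enzymes of the gut held single genes of the same kind. Of 25 cathepsin and aspartyl protease genes 18 were positive, with a median of 0.15. At an unadjusted p under 0.05, 4 were higher (16%, beside 2.37% of all genes) and 0 lower. The median was 0.003 and 1 gene was higher when BRE replicate 1 was left out. ctsa-1.2, named for the carboxypeptidase cathepsin A, was at 45.6, 17.7 and 9.10 CPM with BRE, against 6.50, 8.03 and 3.93 CPM on OP50 alone (1.97 ± 0.44, edgeR adjusted p = 0.186, and a difference of 1.12 without BRE replicate 1). The aspartyl protease genes asp-8 and asp-14 had differences of 1.77 ± 0.42 and 1.39 ± 0.42, and no overlap. These were 1.40 and 0.63 without BRE replicate 1, the second with an unadjusted p of 0.109. asp-8 was at 1.01, 0.648 and 0.435 CPM with BRE, against 0.155, 0.237 and 0.217 CPM on OP50 alone. The cysteine protease gene cpr-2 had the opposite sign, at 34.1, 31.5 and 30.1 CPM with BRE, against 56.8, 78.9 and 77.7 CPM on OP50 alone (-1.16 ± 0.57, adjusted p = 1.00). BRE values were close together and all below the OP50 values. nspg-6, of a nematode-specific peptide family, had a small but even difference, at 12.4, 13.7 and 11.6 CPM with BRE, against 6.57, 8.28 and 6.93 CPM on OP50 alone (0.79 ± 0.20, adjusted p = 0.258).

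Stress and detoxification genes had list medians near that of all genes. The median was -0.02 for 54 heat shock and chaperone genes, -0.03 for 12 genes of the mitochondrial unfolded protein response, 0.01 for 18 endoplasmic reticulum stress genes and -0.04 for 32 superoxide, peroxide and thioredoxin enzymes. In these 4 lists 0 genes had an unadjusted p under 0.05 in edgeR, and DESeq2 called 0. SKN-1 targets, which answer to oxidative stress, had 10 of 20 positive and a median of -0.01. gst-10, a glutathione S-transferase among them, was at 1.56, 0.882 and 0.716 CPM with BRE, against 0.262, 0.563 and 0.377 CPM with OP50 alone (1.38 ± 0.42, edgeR adjusted p = 0.646). The metallothionein gene mtl-1 was at 37.9, 31.5 and 43.2 CPM with BRE, against 112, 44.9 and 33.99 CPM on OP50 alone, and its difference of -0.76 ± 0.35 was -0.07 without OP50 replicate 1. Cytochrome P450 genes had 33 of 73 positive. At an unadjusted p under 0.05, 0 were higher and 3 lower (4.11%), beside 2.37% and 0.456% of all genes. The detoxification gene cyp-35A2 was at 11.2, 5.77 and 7.87 CPM with BRE, against 24.4, 14.3 and 10.3 CPM on OP50 alone.

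Of 47 glutathione S-transferase genes 31 were positive, with a median of 0.15. At an unadjusted p under 0.05, 4 were higher (8.51%, beside 2.37% of all genes). Genes that DAF-16 activates under reduced insulin signalling (class I) had 8 of 17 positive and a median of -0.01. The other DAF-16 list (class II), which holds dod-22 and dod-24, had 4 of 9 positive and a median of -0.03. At an unadjusted p under 0.05 these 2 genes were its higher members (22.2%, beside 2.37% of all genes). Insulin-like peptides (-0.08), the insulin receptor pathway (0.06) and TOR, AMPK and sirtuin genes (0.03) gave 0 genes under an unadjusted p of 0.05, and DESeq2 called 0 in them.

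Genes of protein synthesis and energy metabolism differed little as lists. Cytosolic ribosomal protein genes had 2 of 80 positive with a median of -0.14. Their sum was 88500, 83400 and 87300 CPM with BRE, against 118000, 89400 and 79500 CPM with OP50 alone, so the groups overlapped, and the median ranged from -0.26 to 0.03 as each library was left out. The 66 nuclear genes of the respiratory chain had a median of -0.07, and 11 protein-coding genes of the mitochondrial genome had 10 positive and a median of 0.25. In these 3 lists 0 genes had an unadjusted p under 0.05 in edgeR and 0 were called by DESeq2. The propionate shunt gene acdh-1, an acyl-CoA dehydrogenase, was at 35.5, 0.466 and 0.118 CPM with BRE, against 1.23, 1.23 and 14.2 CPM on OP50 alone. It varied more within each group than between them, and its difference of 1.11 ± 1.19 was -4.25 without BRE replicate 1.

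**Figure D4:**
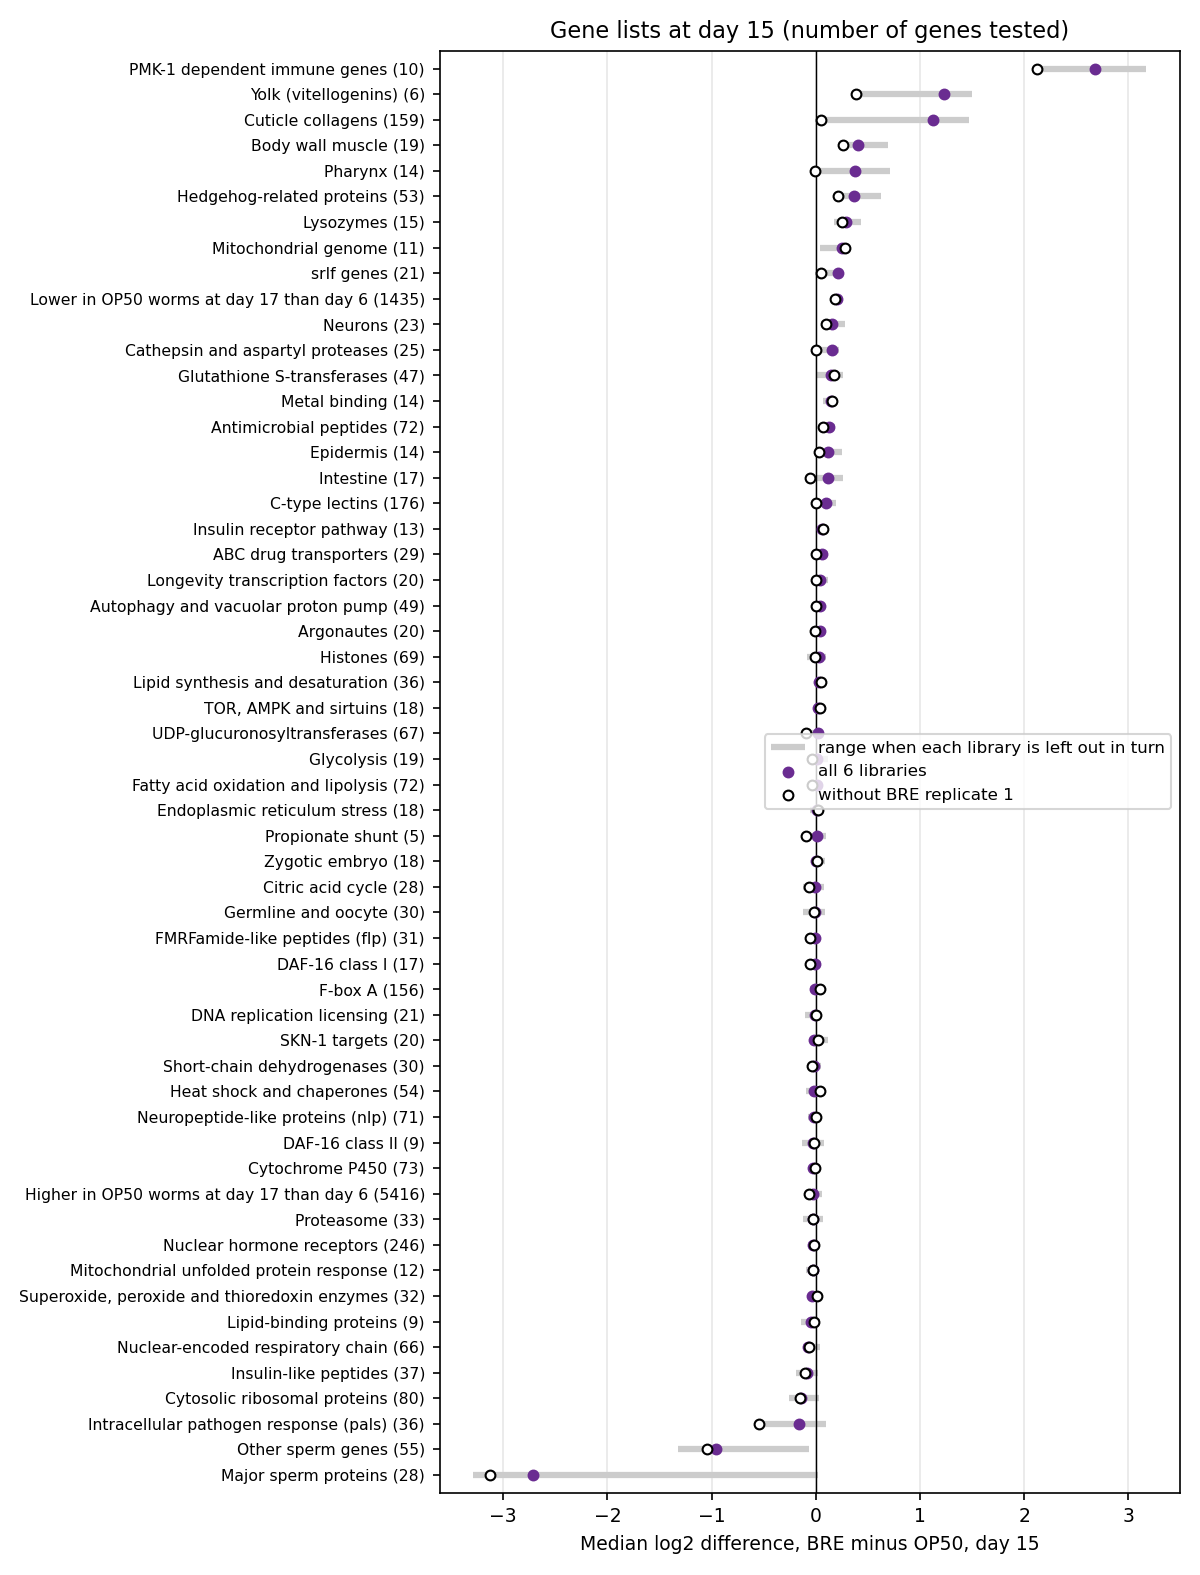
Median log2 difference at day 15 for 56 gene lists, with the number of genes tested in brackets. Purple points use all 6 libraries, open points leave out BRE replicate 1, and grey bars span the medians when each of the 6 libraries is left out in turn. The PMK-1 dependent list stays above 2 throughout, while the collagen median of 1.13 is 0.05 without BRE replicate 1.

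The genes that were higher with BRE at day 15 were compared with the course of ageing on OP50 alone, taken as the difference between OP50 libraries of days 17 and 6. Their levels do not enter the day 15 differences, but all libraries shared 1 estimate of the spread, so the p-values are not fully separate. At day 17, 4527 genes were called lower than at day 6 by edgeR (23.5%), 1435 of them by 2-fold or more (7.44%), and 5416 were higher by 2-fold or more (28.1%). Of the 92 genes higher with BRE under the rule above, 42 were among those called lower with age (45.7%). Of the 49 among them in which BRE replicate 1 was not over 3 times the next library, 32 were (65.3%), and of the 38 that met the rule without BRE replicate 1, 29 were (76.3%). These shares describe genes picked by their day 15 values. On OP50 alone at day 15, 59 of the 92, 23 of the 49 and 17 of the 38 averaged under 1 CPM. Picking genes that are low in old OP50 worms can itself raise the share called lower with age, so these shares are no measure of a link with ageing.

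The 1435 age-lowered genes had 1163 positive differences at day 15 (81%), with a median of 0.21, beside 52.3% and 0.01 over all genes. Leaving out each library in turn gave medians between 0.15 and 0.24. At an unadjusted p under 0.05, 165 were higher with BRE (11.5%) and 6 lower (0.418%), beside 2.37% and 0.456% of all genes. DESeq2 called 35 of the 1435, beside 59 of all 19290 genes (0.306%). Their summed level was 59800, 45500 and 45400 CPM in the BRE libraries, against 39500, 42000 and 42100 CPM in the OP50 libraries, with no overlap. The 6 vitellogenins, all in this class, made up a large part of it. They summed to 25400, 13100 and 13600 CPM with BRE, against 10400, 10600 and 14400 CPM on OP50 alone. The 5416 age-raised genes had 2480 positive (45.8%) and a median of -0.03. Leaving out each library in turn gave medians between -0.09 and 0.06 for them, the highest without OP50 replicate 3, so their sign was not stable. For the age-lowered genes the median of BRE minus OP50 was -0.11 at day 6 (393 positive), 0.20 at day 11 (1121 positive) and -0.05 at day 17 (641 positive), and the day 6 and day 17 values share their OP50 libraries with the age comparison.

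Among the PMK-1 dependent genes 9 of 10 were called lower at day 17 than at day 6, and irg-5 was not. sysm-1 had an age difference of -7.47 on the log2 scale, dod-22 of -7.91, C17H12.8 of -5.50 and irg-4 of -5.88. All 6 vitellogenins were called lower as well, vit-3 by a log2 difference of -5.87. F56D6.9 (-5.37) and C14C6.5 (-7.01) also fell with age, while C42D4.3 rose (2.79, edgeR adjusted p = 0.00492). Of the genes called with BRE at the other days, srlf-12 rose with age (4.01) and W03G1.5 rose (2.66), and nlp-26 (-0.67), idpp-1 (-0.77) and srlf-14 (1.91) were not called.

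**Figure D5:**
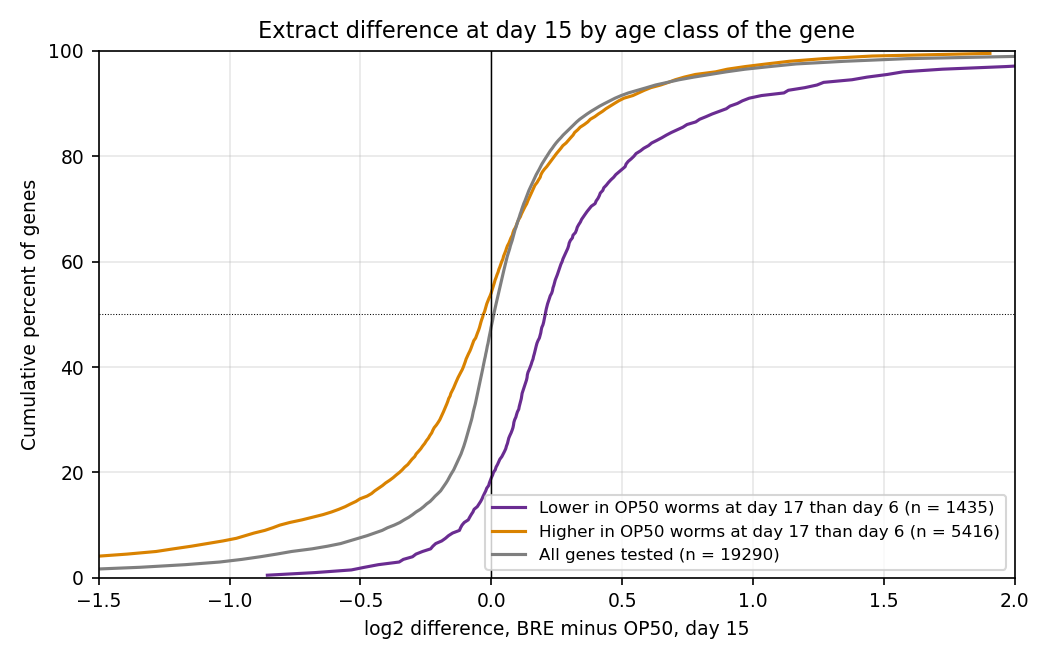
Cumulative percent of genes against the log2 difference of BRE minus OP50 at day 15, for genes lower by 2-fold or more in OP50 worms at day 17 than at day 6 (purple), genes higher by 2-fold or more (orange) and all genes tested (grey). The purple curve crosses 50% at a log2 difference of 0.21 and the grey curve at 0.01.

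Of the 92 genes higher with BRE, 30 lie on chromosome IV (32.6%), beside 16.4% of all genes tested, and 7 of the 10 PMK-1 dependent genes lie there. At the looser threshold of an unadjusted p under 0.05 the share was 19.9% of the 458 higher genes and 23.9% of the 88 lower genes. Only 1 lower gene met the stricter rule behind the 92, so higher and lower genes cannot be compared under it. dod-24 at IV:12940106-12941354, K08D8.5 at IV:12910647-12912129 and dod-22 at IV:12965374-12967392 lie close together in the WBcel235 annotation. F55G11.4, at IV:12973624-12975603 beside dod-22 and named after its values were seen, was at 9.82, 15.6 and 18.02 CPM with BRE, against 6.77, 2.50 and 9.06 CPM with OP50 alone (1.25 ± 0.43, edgeR adjusted p = 0.816), again with no overlap.

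Whether the BRE difference at day 15 departed from that of the other days was tested by setting it against the mean of days 6, 11 and 17. edgeR called 0 genes (0%), with 507 at an unadjusted p under 0.05 and a smallest adjusted p of 0.233, and DESeq2 called 17. The values of the PMK-1 dependent genes stood side by side as follows. For days 6, 11, 15 and 17 the list medians were -0.19, 1.13, 2.68 and -0.32, with 3, 9, 9 and 3 of the 10 genes positive. sysm-1 had differences of -0.51, 1.33, 3.70 and -1.27 on these days. Its day 15 difference against the mean of the others gave an unadjusted p of 8.9e-05 and an adjusted p of 0.573 in edgeR. F56D6.9, with -0.05, 0.82, 3.01 and -1.07, had the smallest adjusted p, 0.233. The medians of the other days for vitellogenins were -0.20 at day 6, 0.26 at day 11 and 0.45 at day 17, and those for collagens were -0.23, 0.12 and -0.04.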

How the data were processed

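RNA of whole worms was sequenced on a DNBSEQ-T7 from MGIEasy libraries made of 1 µg of RNA, per the labels' protocols. The deposited table holds the authors' raw counts per gene, with no normalization. FastQC, Trimmomatic, HISAT2 2.0.5, SAMtools 1.7 and featureCounts are named in the submitters' processing notes; no source used here gives their parameters, strand setting, genome build or annotation, so overlapping genes are uncertain (clec-85, vit-2, vit-3, vit-4, ctsa-1.2, grl-17, msp-31 and nspg-6 have such an overlap, besides those noted). Among low counts (1 to 20) the even share was 54.5% to 63.3% in the day 15 libraries, so a count may not be 1 fragment.

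Differences were computed in R 4.3.3 with edgeR 4.0.16: TMM scaling, filterByExpr with a minimum count of 10, and 9 group means fitted over 27 libraries by quasi-likelihood, with 1 shared estimate of the spread. p-values were Benjamini-Hochberg adjusted over all 19290 genes and called under 0.05; list members were described by counts and medians with no test. SE was obtained by dividing the size of a log2 difference by the root of its F statistic. A prior count of 2 was set only for the log2 CPM values behind the principal components and correlations, not for the log2 differences. p-values measure the spread between the deposited libraries. Gene classes, coordinates and overlaps come from the Ensembl WBcel235 annotation, by gene ID (46924 of 46934 matched). No 2 day 15 libraries agreed within counting noise. Same-number BRE and OP50 libraries deviated together at days 6 and 11 (correlations of 0.22, 0.19 and 0.31, and of 0.50, 0.41 and 0.22), and not in every pair at day 15 or day 17 (0.03, 0.37 and 0.00). The genes of the mitochondrial genome were taken by chromosome.

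The members, the 54 gene lists and the rules were chosen with earlier results of these data known. Named genes are those called at day 15, the 10 highest and lowest differences among genes of at least 1 CPM with an unadjusted p under 0.01 and no overlap, the members of smallest p in the lists described, and those called in the mean of days 6, 11 and 17. Others, members of the PMK-1 dependent and vitellogenin lists aside, were chosen after their values were seen: F56D6.9, C14C6.5, C42D4.3, ora-1, F55G11.4, lys-7, cpr-2, ctsa-1.2 and nspg-6. Alternatives were RLE scaling, DESeq2 1.42.0, no filter, a filter of 1 CPM in 3 libraries, only the 6 day 15 libraries, a replicate block, and leaving out each library.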

Additional observations from a re-analysis of the deposited data

How the results depend on the processing

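edgeR called 0 genes at day 15 with all libraries, RLE scaling, the filter of 1 CPM or only the 6 day 15 libraries, and 14 with no filter beyond 1 count, 4 with a replicate block (idpp-1, F56D6.9, ora-1 and grd-14) and 59 by DESeq2, all higher with BRE. Leaving out each library gave between 0 and 5. The smallest adjusted p in edgeR rose most without OP50 replicate 1, from 0.0824 to 0.499. Replicate numbers did not pair the day 15 libraries: same-number correlations of deviations were 0.04, 0.03 and -0.18, unlike days 6 and 11, where each was over 0.1. Genes under an unadjusted p of 0.05 numbered 315 under the filter of 1 CPM and between 301 and 659 without each library, the lowest without BRE replicate 1. The 92 higher genes of at least 1 CPM became between 38 and 148, with 38 without BRE replicate 1, 60 without OP50 replicate 1, 144 without BRE replicate 2 and 148 without BRE replicate 3. For day 15 against the other days DESeq2 called 17. The mean of the other days gave 5 genes, and 8 with RLE scaling, 8 with no filter, 9 with a replicate block and 16 by DESeq2. The age comparison gave 6851 genes, and 3675 under the filter of 1 CPM, which tests fewer genes. Of 54 genes named, 52 kept their sign under each of the 12 alternatives that gave a value: acdh-1 was -1.06 with a replicate block and between -4.25 and 3.26 without each library, and msp-31 lay between -2.78 and 0.19 without each library. Of the list medians under these alternatives, 605 moved by less than the spread between replicates and 67 by more. Where no cause is named, the cause was not tested. Levels under about 0.1 CPM rest on few counts, which limits precision.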
